A study of Mus musculus with 9 samples.

Results

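The comparison described here is that of MC3T3-E1 cells given 4 mM NaHPO4 for 16 h with untreated Control cells. Its members are the 3 NaHPO4 and the 3 Control libraries of the sample labels, 6 of the 9 samples of the series, and every gene that passed a filter on low counts, 13679 of the 55416 genes counted. MC3T3-E1 is an established pre-osteoblastic line from mouse calvarial bone, and the labels call it wild type. All groups had been taken through osteogenic medium with ascorbic acid, dexamethasone and β-glycerophosphate (BGP), the last of which releases phosphate when alkaline phosphatase cleaves it. The labels keep BGP in the medium up to day 27, whereas the study's text describes a last week without it. At day 27 NaHPO4, a mixture of monobasic and dibasic sodium phosphate, was added to one group, 4 mM BGP to the next and no further phosphate to Control, and RNA was taken 16 h later. Control was not free of phosphate. By the study's text the medium itself held sodium phosphate in every group, below the 4 mM added, which it names a possible confounding factor. The cultures are those of 1 line, so the spread between libraries is not a spread between animals, and no source used here says whether the 3 libraries of a group came from separate cultures. The p-values measure the spread between these libraries, which may be technical.

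Phosphate enters bone cells mainly through the sodium-dependent carriers PiT1 and PiT2, encoded by *Slc20a1* and *Slc20a2*. Mineral forms where phosphate outweighs pyrophosphate, its inhibitor, which ENPP1 makes outside the cell, ANK brings out of the cell and alkaline phosphatase destroys. Raised phosphate is known to activate ERK signaling in osteoblastic cells, and osteocytes secrete FGF23, the hormone that makes the kidney excrete phosphate. The comparison asks which genes differentiated cells change when phosphate comes in inorganic form.

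The Control libraries held from 21390839 to 25646046 counts and the NaHPO4 libraries from 25203779 to 28234404. Mitochondrial transcripts took from 2.51% to 2.68% of the counts of a library and ribosomal protein genes from 3.31% to 3.48%. Expression is given as CPM, the count of a gene relative to all counts of its library, after TMM scaling, and a difference as a log2 fold change (log2FC) with its standard error and the adjusted p (FDR) of edgeR's quasi-likelihood test over all tested genes. Summed levels of marker lists are in CPM without TMM scaling. A differentially expressed gene (DEG) here passed an FDR of 0.05 with a log2FC beyond 0.5 in either direction.

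NaHPO4 upregulated 61 genes and downregulated 37 genes, 98 DEGs or 0.716% of the genes tested (0.446% up and 0.27% down). Without a minimum fold change, 1009 genes passed the test (7.38%), of which 469 rose (3.43%) and 540 fell (3.95%). With libraries scaled by total counts alone, 65.29% of the genes that passed were higher with NaHPO4, against 46.48% with TMM. Most changes were small, since 911 of the 1009 genes had an absolute log2FC of 0.5 or less, while 28 DEGs rose and 9 DEGs fell by more than 1 on the log2 scale. In 97 of the 98 DEGs the NaHPO4 libraries did not overlap the Control libraries, as was so for 23.2% of all tested genes. For a single gene, an exact two-sided permutation test of 3 libraries against 3 cannot give a p below 0.1. The DEGs with the highest expression held best: all 29 with at least 10 CPM in Control kept an FDR below 0.05 in each alternative that gave one, but only 33 of the other 69 did.

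**Figure D1:**
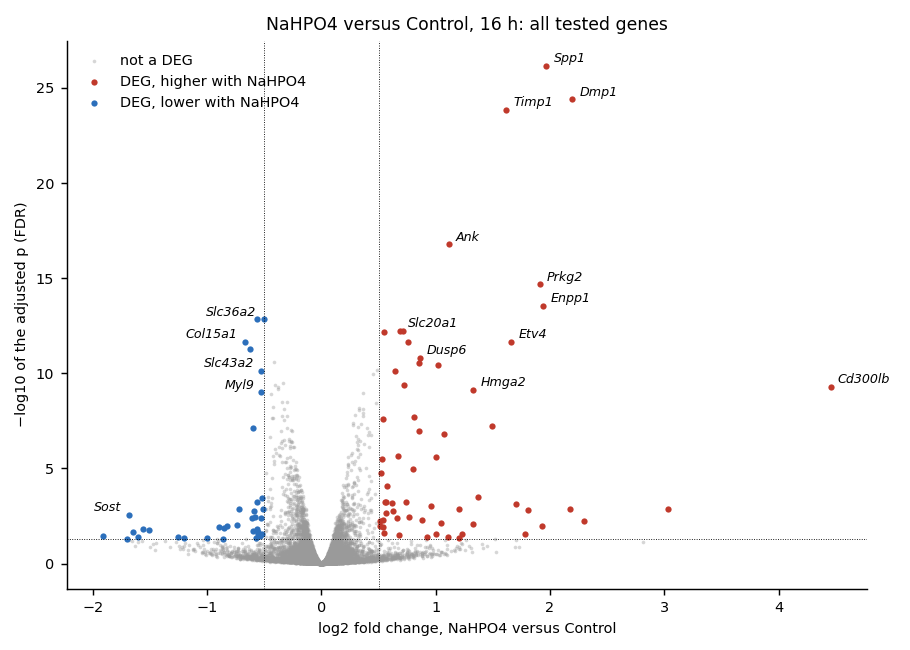
All 13679 tested genes by log2FC of NaHPO4 versus Control (horizontal axis) and −log10 of the adjusted p (vertical axis), with dotted lines at an FDR of 0.05 and an absolute log2FC of 0.5 and selected DEGs named. The 61 upregulated DEGs reach farther along both axes than the 37 downregulated DEGs.

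Of the genes that handle phosphate, the importer *Slc20a1* rose and its relative *Slc20a2* was not seen to change. *Slc20a1* (chromosome 2 from 129040256 to 129053536, GRCm39) measured 40.0, 39.2 and 37.5 CPM in the Control libraries and 65.4, 62.9 and 59.9 CPM with NaHPO4. All NaHPO4 libraries lay above all Control libraries, a 1.61-fold rise (log2FC 0.69, standard error 0.0484, adjusted p = 5.75e-13). Genes on the opposite strand overlap 34.2% of its exon bases, and whether strand was used in counting is not given in the sources used here. *Slc20a2* measured 62.2, 59.8 and 58.4 CPM in Control and 54.7, 62.9 and 59.7 CPM with NaHPO4, with overlapping libraries (log2FC -0.02, standard error 0.0494, adjusted p = 0.857). Per kilobase of merged exons, the level of *Slc20a1* went from 6.29 to 10.1 CPM, and that of *Slc20a2* was 5.33 and 5.24 CPM. *Slc20a1* was thus the higher in both groups on this measure, which depends on the annotated exon length. The exporter *Xpr1* (log2FC 0.07, standard error 0.0465, adjusted p = 0.401) and the mitochondrial carrier *Slc25a3* (log2FC 0.06, standard error 0.0342, adjusted p = 0.348) did not pass the test. The kidney and gut carriers *Slc34a1*, *Slc34a2* and *Slc34a3* had at most 3 counts in a library and were not tested.

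Among 9 genes of pyrophosphate and phosphate release, 4 rose and 3 fell (2 rose with DESeq2 and without Control replicate 1, NaHPO4 replicate 2 or NaHPO4 replicate 3), and the pyrophosphate suppliers *Enpp1* and *Ank* were among those that rose. *Enpp1* (chromosome 10 from 24513812 to 24588057), which makes pyrophosphate from nucleotides, measured 7.95, 4.70 and 10.1 CPM in Control and 31.2, 27.6 and 28.9 CPM with NaHPO4. The groups did not overlap, and the rise was 3.83-fold (log2FC 1.94, standard error 0.121, adjusted p = 2.75e-14). *Ank* (chromosome 15 from 27466558 to 27598709), whose product lets pyrophosphate out of the cell, measured 82.8, 73.7 and 87.6 CPM and 175, 159 and 195 CPM, a 2.16-fold rise (log2FC 1.11, standard error 0.0542, adjusted p = 1.64e-17). In both genes the lowest NaHPO4 library stood well clear of the highest Control library. On the side of phosphate release, *Smpd3*, a membrane sphingomyelinase needed for bone mineralization, measured 673, 658 and 683 CPM in Control and 537, 519 and 496 CPM with NaHPO4 (log2FC -0.38, standard error 0.0346, adjusted p = 4.96e-10). *Alpl*, the tissue-nonspecific alkaline phosphatase, measured 74.2, 76.5 and 80.1 CPM and 64.8, 69.2 and 65.5 CPM, a decrease smaller than that of *Smpd3* but without overlap (log2FC -0.21, standard error 0.0440, adjusted p = 0.00128). *Phospho1*, the phosphatase of matrix vesicles, fell by less still (log2FC -0.16, standard error 0.0477, adjusted p = 0.0257), a call lost with total counts alone and without Control replicate 1, Control replicate 3 or NaHPO4 replicate 3 (adjusted p up to 0.159). The intracellular pyrophosphatase *Ppa1* rose (log2FC 0.18, standard error 0.0543, adjusted p = 0.0349), a call lost with DESeq2 and without Control replicate 1, NaHPO4 replicate 2 or NaHPO4 replicate 3 (adjusted p up to 0.263), while *Ppa2* and *Entpd5* did not pass. *Enpp3* had at most 1.02 CPM in any library (log2FC 1.20, standard error 0.376, adjusted p = 0.0426), and its adjusted p reached 0.179 without Control replicate 1 and was 0.05 or more without any other single Control or NaHPO4 library, in the fit of the 2 groups alone (0.0578) and with the replicate block (0.0516).

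Among DEGs with at least 10 CPM in Control, the largest rises were those of 2 secreted mineral-binding phosphoproteins, which lie in one cluster on chromosome 5. *Spp1* (chromosome 5 from 104582165 to 104589235), which encodes osteopontin, an inhibitor of crystal growth, measured 1645, 1682 and 1881 CPM in Control and 6689, 6264 and 7404 CPM with NaHPO4. Every NaHPO4 library lay far above the Control range, a 3.91-fold rise (log2FC 1.97, standard error 0.0482, adjusted p = 6.76e-27). *Dmp1* (chromosome 5 from 104345340 to 104361974), dentin matrix protein 1, an osteocyte protein that promotes mineralization, measured 73.7, 67.0 and 87.4 CPM and 369, 314 and 363 CPM, a 4.57-fold rise (log2FC 2.19, standard error 0.0618, adjusted p = 3.89e-25). *Fam20c*, the secretory kinase that phosphorylates such proteins, went from 80.8, 76.1 and 83.5 CPM to 129, 121 and 145 CPM (log2FC 0.71, standard error 0.0502, adjusted p = 5.75e-13), and its partner *Fam20a* from 14.8, 11.8 and 17.3 CPM to 19.8, 18.9 and 21 CPM (log2FC 0.44, standard error 0.0923, adjusted p = 0.00146). The other members of the list did not pass the test. *Ibsp*, bone sialoprotein, measured 12540, 12710 and 12040 CPM in Control and 12180, 12410 and 11990 CPM with NaHPO4, and its groups overlapped (log2FC -0.03, standard error 0.0285, adjusted p = 0.664). *Mepe* (log2FC -0.17, standard error 0.181, adjusted p = 0.679) and *Phex*, the peptidase lost in X-linked hypophosphatemia (log2FC 0.08, standard error 0.0692, adjusted p = 0.579), did not pass either, and *Dspp* had at most 1 count in a library. In all, 4 of the 7 tested members rose, and the median log2FC of the list was 0.44, where the median of all tested genes was near 0. The predicted transcript *Gm42793* (chromosome 5 from 104582987 to 104584238) also rose (log2FC 1.49, standard error 0.170, adjusted p = 6.05e-08), but 28.9% of its exon bases lie in *Spp1* exons on the same strand, where reads of *Spp1* and *Gm42793* cannot be told apart.

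**Figure D2:**
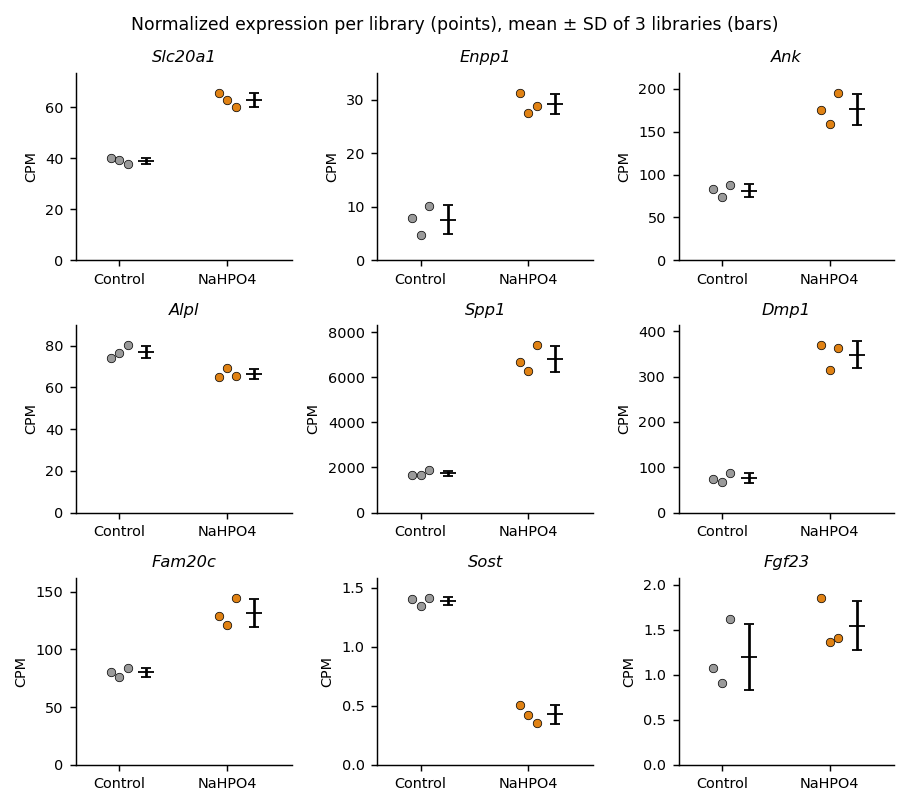
CPM of 9 genes of phosphate handling, mineral and osteocyte function in the 3 Control (grey) and 3 NaHPO4 (orange) libraries, each on its own linear axis from 0, with bars for mean ± SD. The groups are apart in all panels except that of *Fgf23*, where they overlap, and *Alpl* and *Sost* are the genes that fall.

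*Fgf23* did not pass the test after NaHPO4. It measured 1.07, 0.914 and 1.61 CPM in Control and 1.86, 1.37 and 1.41 CPM with NaHPO4, and the highest Control library lay above 2 of the 3 NaHPO4 libraries (log2FC 0.35, standard error 0.253, adjusted p = 0.496). Over the alternatives its log2FC lay between 0.18 and 0.64 and its adjusted p between 0.229 and 0.795. *Sost* (chromosome 11 from 101853284 to 101857847), which encodes sclerostin, the osteocyte's inhibitor of Wnt signaling, measured 1.40, 1.35 and 1.42 CPM in Control and 0.510, 0.421 and 0.351 CPM with NaHPO4. Expression was low but the groups were apart, with a 3.21-fold lower level after NaHPO4 (log2FC -1.69, standard error 0.377, adjusted p = 0.00272). Its log2FC stayed between -1.83 and -1.57 in the alternatives, in which the adjusted p reached 0.0212, although DESeq2 gave none and the filter of 10 counts in every library left the gene out. Of the 12 osteocyte genes tested, 3 rose and 1 fell, with a median log2FC of 0.02. *Capg*, an actin-capping protein of osteocytes, rose from 196 ± 5.17 to 268 ± 15.4 CPM (SD, n = 3) (log2FC 0.45, standard error 0.0389, adjusted p = 1.05e-10), and *Tnfrsf11b*, osteoprotegerin, which keeps RANKL from activating osteoclasts, rose from 207 ± 7.08 to 260.1 ± 5.59 CPM (log2FC 0.33, standard error 0.0343, adjusted p = 6.86e-09).

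Targets of ERK signaling were divided. Of 20 tested genes of ERK output and feedback, 6 rose and 1 fell (median log2FC 0.17). In the alternatives 5 to 8 rose and 1 fell, with medians between 0.07 and 0.24. The gene that fell is not named here. The transcription factor *Etv4* (chromosome 11 from 101660568 to 101676197) measured 4.67, 4.05 and 5.20 CPM in Control and 15.4, 12.1 and 16.8 CPM with NaHPO4, a 3.16-fold rise (log2FC 1.66, standard error 0.123, adjusted p = 2.22e-12). *Dusp6*, the phosphatase that turns ERK off, measured 45.5, 39.0 and 52.8 CPM and 83.5, 77.5 and 89.3 CPM (log2FC 0.86, standard error 0.0687, adjusted p = 1.48e-11). *Phlda1* (log2FC 1.07, standard error 0.128, adjusted p = 1.59e-07), the adaptor *Spred1*, an inhibitor of Ras signaling (log2FC 0.34, standard error 0.0460, adjusted p = 1.74e-06), and *Fosl1* (log2FC 1.21, standard error 0.252, adjusted p = 0.00133) rose as well, without overlap of the groups. For *Fosl1* 69.1% of the exon bases lie under genes of the opposite strand, and for *Phlda1* 33.0%. Cyclin D1 (*Ccnd1*), also a target, measured 462 ± 15.9 CPM in Control and 472 ± 8.96 CPM with NaHPO4 (log2FC 0.03, standard error 0.0335, adjusted p = 0.683).

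Immediate early genes, the fast transcription factors that stimuli switch on, more often fell than rose at 16 h: 9 of 28 fell and 4 rose (median log2FC -0.11), and between 6 and 10 fell in the alternatives. *Egr3* went from 30.1, 25.9 and 30.7 CPM to 55.3, 47.5 and 53.8 CPM (log2FC 0.85, standard error 0.0696, adjusted p = 2.84e-11). Its relative *Egr1* took the other direction, from 102, 98.8 and 109 CPM to 88.0, 83.8 and 83.6 CPM (log2FC -0.28, standard error 0.0442, adjusted p = 2.7e-05). In both genes the libraries of the groups were apart. The shear-responsive factor *Klf2* fell (log2FC -0.42, standard error 0.0590, adjusted p = 3.99e-06) and the low *Ier5l* rose from 5.75, 5.53 and 5.08 CPM to 7.13, 7.86 and 8.32 CPM (log2FC 0.51, standard error 0.123, adjusted p = 0.00555). Among 20 genes of ERK output, 13 did not pass, and among the 28 immediate early genes, 15 did not.

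The largest fold change belonged to *Cd300lb* (chromosome 11 from 114813607 to 114825212), an activating receptor known from myeloid cells. It had at most 4 counts in a Control library and at least 61 in an NaHPO4 library, with 0.187, 0.174 and 0.0787 CPM and 3.79, 2.14 and 3.87 CPM. No NaHPO4 library came near the Control range (log2FC 4.46, standard error 0.411, adjusted p = 4.96e-10), and the log2FC stayed between 4.13 and 4.69 in the alternatives. Of 5 haematopoietic markers, *Ptprc* and *Itgam* were at 0 counts in all 6 libraries. *Cd68* and *Csf1r* passed the filter on low counts, made up most of the list's sum and did not pass the test. The summed level of the list was between 1.73 and 2.01 CPM in Control and between 1.55 and 1.74 CPM with NaHPO4. *Timp1* (chromosome X from 20736316 to 20740976), an inhibitor of matrix metalloproteinases, measured 135, 149 and 152 CPM and 419.5, 424 and 494 CPM, a 3.06-fold rise (log2FC 1.62, standard error 0.0479, adjusted p = 1.46e-24). *Prkg2* (chromosome 5 from 99076863 to 99185470), the cGMP-dependent kinase of growth plate chondrocytes, measured 4.63, 5.13 and 6.81 CPM and 22, 19.2 and 21.7 CPM, a 3.76-fold rise (log2FC 1.91, standard error 0.109, adjusted p = 2.06e-15). Both were apart from Control in every library.

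Further genes with a large rise were low in Control. The accessory chain of the interleukin 18 receptor, *Il18rap*, went from 0.0467, 0.566 and 0.236 CPM to 1.17, 0.948 and 1.83 CPM (log2FC 2.17, standard error 0.456, adjusted p = 0.00137), the sterol transporter *Abcg8* from 0.561, 0.261 and 0.315 CPM to 1.35, 0.913 and 1.72 CPM (log2FC 1.80, standard error 0.381, adjusted p = 0.00145) and the long noncoding RNA *Gm5122* from 0.514, 0.609 and 0.394 CPM to 1.6, 1.61 and 1.72 CPM (log2FC 1.70, standard error 0.338, adjusted p = 0.000715). These 3 genes were apart in all libraries and kept an FDR below 0.05 in each alternative that gave one. The ubiquitin ligase gene *Rnf150* (log2FC 1.93, standard error 0.5, adjusted p = 0.0111) did not, with adjusted p-values of 0.0921 without Control replicate 1, 0.0841 without Control replicate 2 and 0.0704 without NaHPO4 replicate 1. Chosen after their values were seen, the chromatin protein gene *Hmga2*, known from growing and embryonic cells, went from 4.77, 5.79 and 8.03 CPM to 15.1, 14.5 and 17.6 CPM (log2FC 1.33, standard error 0.124, adjusted p = 7.07e-10), and *Emp1*, a membrane protein of epithelia and connective tissue, from 261, 262 and 294 CPM to 402, 382 and 413 CPM (log2FC 0.55, standard error 0.0389, adjusted p = 6.61e-13). *Emp1* was one of the most abundant DEGs, with a rise of only 1.46-fold. Also chosen in this way, the unprocessed pseudogenes *Gm28661* (log2FC 0.88, standard error 0.209, adjusted p = 0.00505) and *Gm28437* (log2FC 0.74, standard error 0.144, adjusted p = 0.000584) share all of their sequence, in windows of 50 bases, with other genes, so their counts are uncertain.

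Signals received at the cell surface were tested by lists of cytokines, semaphorins and integrins. Of 13 tested cytokine and receptor genes 4 rose, and no fall passed edgeR's test (1 fell at an unadjusted p below 0.05, and DESeq2 called 0). *Osmr*, the oncostatin M receptor, went from 10.9, 14.1 and 12.6 CPM to 21.1, 21.6 and 23.7 CPM (log2FC 0.81, standard error 0.0882, adjusted p = 2e-08). *Il12a*, a subunit of interleukins 12 and 35, went from 3.27, 2.39 and 3.19 CPM to 4.48, 4.74 and 4.84 CPM (log2FC 0.67, standard error 0.154, adjusted p = 0.00397). *Tnfrsf12a*, the receptor of TWEAK, rose too (log2FC 0.54, standard error 0.0594, adjusted p = 2.64e-08), but all of its exon bases lie under a gene on the opposite strand. Of 23 genes of semaphorins and their receptors 4 rose and 3 fell, with 1 to 4 falls in the alternatives, the fewest without Control replicate 3. *Sema5a* measured 16.2, 16.0 and 18.5 CPM in Control and 38.4, 34.5 and 29.9 CPM with NaHPO4 (log2FC 1.02, standard error 0.0844, adjusted p = 3.69e-11), and *Sema7a*, a membrane-anchored semaphorin, 72.2, 61.3 and 85.6 CPM and 128, 113 and 119.9 CPM (log2FC 0.72, standard error 0.0656, adjusted p = 4.19e-10). *Plxna1* rose (log2FC 0.18, standard error 0.0353, adjusted p = 0.00052) and *Sema3b* fell (log2FC -0.22, standard error 0.0471, adjusted p = 0.00156). Among 15 integrin chains 1 rose and 1 fell (2 rose with total counts alone and without Control replicate 3). These made up 13.3% of the chains, where 7.38% of all tested genes passed. *Itgb8*, which binds latent TGF-β, rose from 5.47, 5.13 and 5.20 CPM to 8.30, 8.92 and 10.4 CPM (log2FC 0.81, standard error 0.120, adjusted p = 1.06e-05), and *Itga11*, a collagen receptor chain, fell (log2FC -0.17, standard error 0.0416, adjusted p = 0.00570), a call lost without NaHPO4 replicate 3 (adjusted p = 0.0739).

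Most genes of the osteoblast list fell slightly. Of the 17 tested, 10 fell and 7 did not pass, no rise passed edgeR's test (1 at an unadjusted p below 0.05, 0 by DESeq2), and the median log2FC was -0.14. The summed level of the list, of which *Col1a1* was a large part, ranged from 133600 to 140400 CPM in Control and from 120600 to 126700 CPM with NaHPO4. *Ifitm5*, an osteoblast membrane protein linked to brittle bone disease, measured 96.1, 95.7 and 89.5 CPM in Control and 70.0, 67.4 and 69.4 CPM with NaHPO4 (log2FC -0.44, standard error 0.0425, adjusted p = 1.18e-09). *Postn*, periostin, measured 2947 ± 141 CPM (SD, n = 3) and 2523 ± 37.8 CPM (log2FC -0.22, standard error 0.0319, adjusted p = 4.41e-06), and *Pth1r*, the parathyroid hormone receptor, 963 ± 24.1 and 851 ± 21.7 CPM (log2FC -0.18, standard error 0.0311, adjusted p = 0.000127). All 3 were below Control in every NaHPO4 library. The lineage factors *Runx2* (log2FC -0.09, standard error 0.0328, adjusted p = 0.0892) and *Sp7* (log2FC -0.09, standard error 0.0315, adjusted p = 0.0609) did not pass the test. *Runx2* passed as a fall without NaHPO4 replicate 1, and *Sp7* with DESeq2 and without Control replicate 2 or NaHPO4 replicate 1 (lowest adjusted p 0.0218 and 0.0254). In RNA from whole cultures, fewer cells of a type and less RNA per cell cannot be told apart.

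More collagen chains fell than rose. Of 26 chains tested, 10 fell and 3 rose (median log2FC -0.10), and in the alternatives from 7 to 13 fell and from 1 to 3 rose, the fewest without Control replicate 1 or NaHPO4 replicate 2. *Col1a1*, the chief chain of bone collagen, measured 41050, 43550 and 45260 CPM in Control and 38510, 37730 and 35520 CPM with NaHPO4, a 1.16-fold lower level with the groups apart (log2FC -0.22, standard error 0.0340, adjusted p = 2.47e-05). The 2 collagen DEGs were of minor fibril and basement membrane types. *Col11a2*, a chain of type XI collagen, measured 699.7, 636 and 657 CPM and 484, 424 and 381 CPM (log2FC -0.63, standard error 0.0481, adjusted p = 5.14e-12), and *Col15a1* measured 67.7, 66.7 and 65.8 CPM and 44.1, 42.8 and 38.7 CPM (log2FC -0.67, standard error 0.0498, adjusted p = 2.22e-12). *Col22a1*, found at tissue junctions, fell as well (log2FC -0.41, standard error 0.0535, adjusted p = 9.83e-07).

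Among 26 genes of matrix remodelling, 7 fell and 3 rose (median log2FC -0.04). Beside *Timp1*, the large proteoglycan versican, *Vcan*, rose from 39.0, 45.4 and 41.1 CPM to 66.1, 71.9 and 75 CPM (log2FC 0.76, standard error 0.0566, adjusted p = 2.27e-12). The membrane-bound collagenase *Mmp14*, which *Timp1* hardly inhibits, fell from 1069, 1105 and 1074 CPM to 916, 910.3 and 895 CPM (log2FC -0.26, standard error 0.0320, adjusted p = 3.96e-07), and the cross-linking transglutaminase *Tgm2* from 7.29, 8.18 and 9.37 CPM to 6.22, 4.88 and 5.51 CPM (log2FC -0.59, standard error 0.125, adjusted p = 0.00164). Of 19 genes of TGF-β and BMP signaling 1 rose and 1 fell, with 0 to 2 falls in the alternatives. That was 10.5% of the list, near the 7.38% of all tested genes that passed. The matricellular *Ccn2* measured 41.5, 36.6 and 39.7 CPM in Control and 63.3, 59.7 and 60.6 CPM with NaHPO4 (log2FC 0.64, standard error 0.0547, adjusted p = 7.41e-11), with 36.5% of its exon bases under a gene of the opposite strand. *Tgfb1* fell (log2FC -0.16, standard error 0.0381, adjusted p = 0.00611), a call lost without Control replicate 3 (adjusted p = 0.0927).

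**Figure D3:**
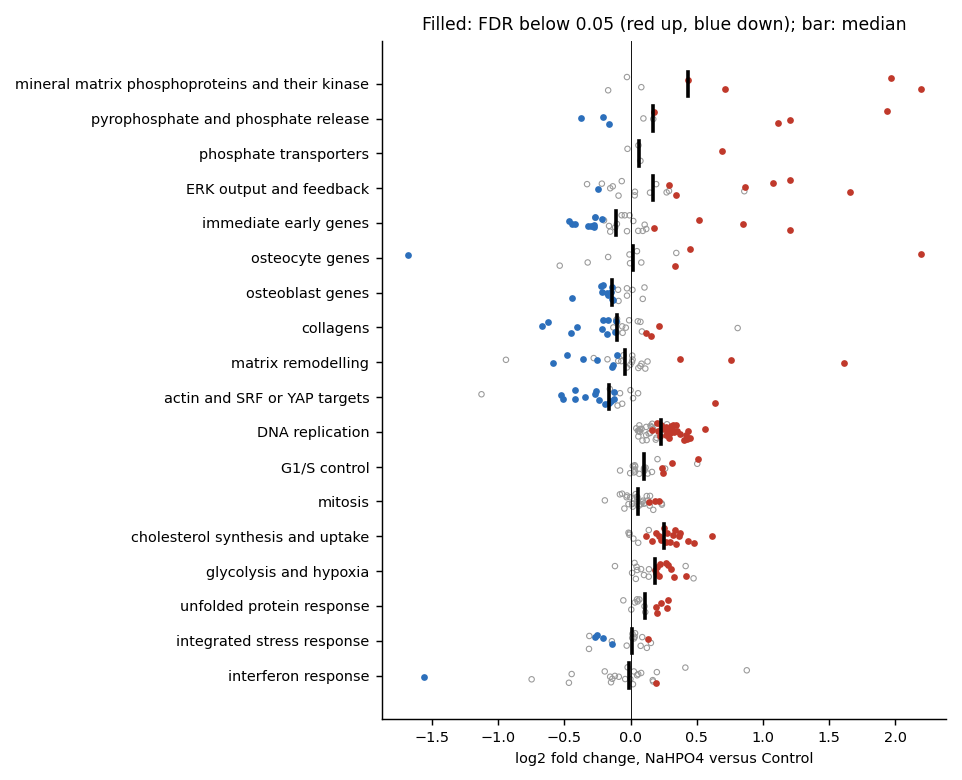
Log2FC of NaHPO4 versus Control (horizontal axis) for the tested genes of 18 lists, with filled points for genes with an FDR below 0.05 (red up, blue down), open points for the rest and a bar at each list's median. DNA replication and cholesterol genes lie right of 0, with medians of 0.23 and 0.25, and osteoblast and actin genes mostly left of 0, with medians of -0.14 and -0.16.

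Genes of the actin cytoskeleton mostly fell. Of 22 genes of actin and of SRF or YAP targets, 13 fell, 1 rose and 8 did not pass, with a median log2FC of -0.16. *Myl9*, the regulatory light chain of smooth muscle and nonmuscle myosin, measured 78.5, 80.2 and 72.5 CPM in Control and 50.9, 58.7 and 50.8 CPM with NaHPO4 (log2FC -0.52, standard error 0.0499, adjusted p = 1e-09). *Actg1*, cytoplasmic γ-actin, measured 377, 362 and 367 CPM and 268, 284 and 277 CPM (log2FC -0.42, standard error 0.0339, adjusted p = 2.53e-11), although 50.6% of its sequence in windows of 50 bases occurs in other genes. *Acta2*, smooth muscle α-actin, measured 451, 455 and 415 CPM and 303, 361 and 322 CPM (log2FC -0.42, standard error 0.0431, adjusted p = 5.7e-09), and the small muscle protein gene *Mustn1* 13.6, 12.9 and 11.1 CPM and 8.48, 8.29 and 9.53 CPM (log2FC -0.51, standard error 0.108, adjusted p = 0.00141). In these 4 genes every NaHPO4 library was below every Control library. Of 5 muscle markers, with *Myod1* and *Myog* at 0 counts, only *Des* passed the filter on low counts, and it did not pass the test (log2FC -0.31). The list, mostly *Des*, summed to between 9.20 and 10.1 CPM in Control and between 7.82 and 7.93 CPM with NaHPO4. Its part in the result was not tested. The gene that rose was *Ccn2*, described above. *Srf* encodes the serum response factor, which binds the CArG box of muscle and cytoskeletal promoters, and fell itself, from 55.0, 52.1 and 50.0 CPM to 43.9, 43.6 and 42.9 CPM (log2FC -0.27, standard error 0.0508, adjusted p = 0.00041).

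A CArG box was found within 250 bases before a start site in 5 of the 18 list genes with a RefSeq promoter (27.8%). The share was 1.44% of the 10053 tested genes with a promoter and 3.47% of the 403 matched genes that fell. The list was made to hold SRF targets, so its high share follows from that choice and is no result of NaHPO4. All 5 genes fell, and their windows of 60 bases are shown because they hold the box in capitals (RefSeq, GRCm38.p6, 5′ to 3′ on the gene's strand). *Cnn2*, calponin 2 (log2FC -0.20, standard error 0.0311, adjusted p = 2.92e-05), and *Vcl*, vinculin (log2FC -0.15, standard error 0.0367, adjusted p = 0.00647, lost without NaHPO4 replicate 3 at 0.0963), were named for their boxes after their values were seen. The match is by letters on both strands and is no measure of binding.
Actg1, chr11:120348551-120348610, minus strand: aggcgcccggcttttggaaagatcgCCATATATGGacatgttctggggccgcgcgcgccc
Cnn2, chr10:79988519-79988578, plus strand: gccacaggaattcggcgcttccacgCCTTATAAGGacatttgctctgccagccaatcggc
Myl9, chr2:156775278-156775337, plus strand: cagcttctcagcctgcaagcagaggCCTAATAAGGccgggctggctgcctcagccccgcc
Srf, chr17:46556210-46556269, minus strand: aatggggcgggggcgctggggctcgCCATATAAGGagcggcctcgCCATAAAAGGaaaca
Vcl, chr14:20929148-20929207, plus strand: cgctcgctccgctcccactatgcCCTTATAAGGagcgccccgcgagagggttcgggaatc
The promoter of *Srf* holds 2 boxes and the other windows 1 each. The motifs searched were chosen with these results known.

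**Figure D4:**
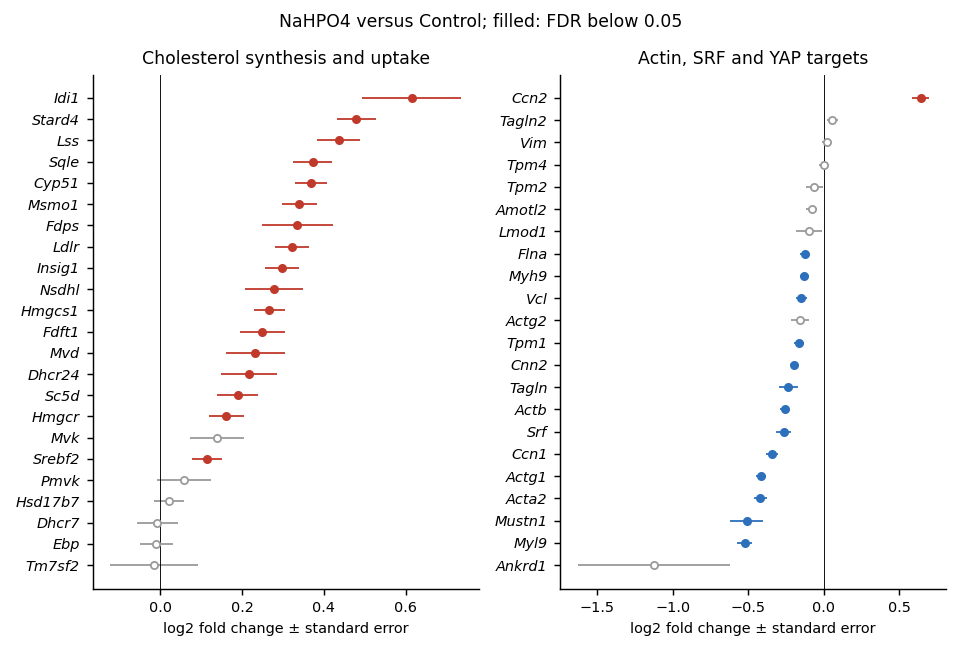
Log2FC of NaHPO4 versus Control with its standard error for the 23 tested genes of cholesterol synthesis and uptake (left) and the 22 of actin, SRF and YAP targets (right), where filled points passed an FDR of 0.05. In the left panel 17 genes are filled and all of these are right of 0, and in the right panel 13 of the 14 filled genes are left of 0.

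Genes of DNA replication rose by small amounts and in one direction. All 52 tested members had a positive log2FC (51 or 52 in the alternatives), and the median was 0.23. The rise passed the test in 26 of them, and in 18 to 26 over the alternatives. The median of all tested genes was near 0, and 3.43% of them rose. No fall passed edgeR's test (0 at an unadjusted p below 0.05, and 0 by DESeq2). The exonuclease *Exo1*, which was the list's only DEG, went from 6.31, 6.13 and 4.96 CPM to 9.03, 8.11 and 8.51 CPM (log2FC 0.56, standard error 0.124, adjusted p = 0.00224). *Mcm6*, a subunit of the replicative helicase, measured 73.3, 73.2 and 75 CPM in Control and 93.8, 93.8 and 94.6 CPM with NaHPO4 (log2FC 0.35, standard error 0.0393, adjusted p = 4.61e-08). *Lig1*, DNA ligase 1, measured 24.3, 27.3 and 26.0 CPM and 36.0, 31.9 and 35.8 CPM (log2FC 0.42, standard error 0.0654, adjusted p = 2.43e-05), *Mcm3* 44.4, 42.9 and 47.8 CPM and 52.2, 59.5 and 57.7 CPM (log2FC 0.32, standard error 0.0524, adjusted p = 3.85e-05), and *Uhrf1*, which keeps DNA methylation through replication, 56.7, 57.2 and 57.5 CPM and 66.5, 74.7 and 67.5 CPM (log2FC 0.28, standard error 0.0467, adjusted p = 4.92e-05). None of these overlapped between the groups, and neither did 38 of the 52 genes, where NaHPO4 lay above Control. Of all 13679 tested genes, 1591 lay above Control in this way, and 23.2% were apart in either direction.

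An E2F site, the letters TTTCCCGC, TTTCGCGC, TTTGCCGC or TTTGGCGC on either strand, stood within 250 bases before a start site in 9 of the 42 replication genes with a RefSeq promoter (21.4%). It did so in 3.97% of all tested genes with a promoter, in 7.84% of the 357 matched genes that rose and in 2.48% of those that fell. E2F factors switch on replication genes at the entry to S phase, so the share of the list is no result of NaHPO4. Windows of 5 of these genes, from the same source and build, are shown for their sites in capitals, which overlap on opposite strands in *Mcm5* and *Mcm6*. *Cdc6* (log2FC 0.40, standard error 0.110, adjusted p = 0.0172), a loader of the helicase, *Mcm5* (log2FC 0.29, standard error 0.0567, adjusted p = 0.000661) and *Rfc3* (log2FC 0.33, standard error 0.0936, adjusted p = 0.0212) were named for these sites after their values were seen. The call of *Cdc6* was lost without Control replicate 3, NaHPO4 replicate 2 or NaHPO4 replicate 3 (adjusted p up to 0.169) and that of *Rfc3* without any 1 library other than NaHPO4 replicate 2 (up to 0.0778).
Cdc6, chr11:98907987-98908046, plus strand: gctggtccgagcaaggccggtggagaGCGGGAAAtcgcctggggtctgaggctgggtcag
Mcm5, chr8:75109330-75109389, plus strand: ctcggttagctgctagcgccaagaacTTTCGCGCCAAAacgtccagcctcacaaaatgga
Mcm6, chr1:128359782-128359841, minus strand: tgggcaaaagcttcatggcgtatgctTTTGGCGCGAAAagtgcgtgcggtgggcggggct
Rfc3, chr5:151651209-151651268, minus strand: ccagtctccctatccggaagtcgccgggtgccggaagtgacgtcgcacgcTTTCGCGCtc
Uhrf1, chr17:56304102-56304161, plus strand: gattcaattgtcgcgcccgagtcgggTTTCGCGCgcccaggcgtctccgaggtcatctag

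The other steps of the cell cycle moved less. Of 22 genes of G1/S control 4 rose (median log2FC 0.10), and between 1 (without Control replicate 1) and 7 (with total counts alone) did in the alternatives. *Ccne2*, cyclin E2, measured 24.8, 24.8 and 23.9 CPM in Control and 32.7, 30.0 and 28.4 CPM with NaHPO4 (log2FC 0.31, standard error 0.0637, adjusted p = 0.00105). *Chek1*, the replication checkpoint kinase, measured 4.25, 4.74 and 4.96 CPM and 6.19, 7.20 and 6.56 CPM (log2FC 0.51, standard error 0.133, adjusted p = 0.0109), but its adjusted p was 0.0792 without Control replicate 1 and 0.0763 without NaHPO4 replicate 2. *E2f1* (log2FC 0.24, standard error 0.0618, adjusted p = 0.0109) lost its call without Control replicate 1 (adjusted p = 0.0591). Of 32 mitosis genes 3 rose (median log2FC 0.06), with 1 to 5 in the alternatives, 1 without Control replicate 1 and 5 without Control replicate 3 or with total counts alone. The share of mitosis genes that passed was 9.38%, near the 7.38% of all tested genes. *Top2a*, a topoisomerase of S and G2 phase, measured 124, 125 and 138 CPM and 151, 148 and 142 CPM (log2FC 0.18, standard error 0.0412, adjusted p = 0.00277). *Cdk1* (log2FC 0.21, standard error 0.0621, adjusted p = 0.0270) and *Mki67* (log2FC 0.14, standard error 0.0419, adjusted p = 0.0318) each lost the call when single libraries were left out (*Mki67* also in the fit of the 2 groups alone), with adjusted p-values up to 0.230 for *Cdk1* and 0.194 for *Mki67*.

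Cholesterol synthesis rose along most of its length. Of 23 tested genes, 17 rose and 6 did not pass, with a median log2FC of 0.25, and no fall passed edgeR's test (0 at an unadjusted p below 0.05, and 0 by DESeq2). Between 12 and 17 rose in the alternatives. Of all tested genes 3.43% rose. *Idi1*, the isomerase of isoprenoid synthesis and the only DEG of the list, measured 5.19, 4.96 and 4.84 CPM in Control and 7.35, 8.04 and 7.54 CPM with NaHPO4 (log2FC 0.61, standard error 0.121, adjusted p = 0.00063). *Stard4*, a carrier of cholesterol inside the cell, measured 45.3, 41.6 and 43.0 CPM and 60.9, 61.9 and 58.2 CPM (log2FC 0.48, standard error 0.0480, adjusted p = 3.51e-09). *Lss*, which closes the sterol rings, measured 37.7, 42.1 and 42.9 CPM and 55.2, 53.5 and 57.7 CPM (log2FC 0.44, standard error 0.0524, adjusted p = 1.73e-07), and *Cyp51*, a sterol demethylase, 97.1, 101 and 94.4 CPM and 122, 126 and 129 CPM (log2FC 0.37, standard error 0.0389, adjusted p = 1.24e-08). In all of these NaHPO4 lay above Control in every library. Of 12 fatty acid synthesis genes 5 rose, among them the elongase *Elovl6* (log2FC 0.43, standard error 0.0937, adjusted p = 0.00186) and the desaturase *Scd2*, from 606 ± 16.4 to 743 ± 10.9 CPM (SD, n = 3) (log2FC 0.29, standard error 0.0313, adjusted p = 1.52e-08).

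The pathway is switched on by SREBP2, which binds sterol response elements next to CCAAT boxes. The letters CCAAT stood on either strand of the promoter in 16 of the 16 cholesterol genes with a RefSeq promoter, against 41.0% of all tested genes with one. The element TCACNCCAC was found in 1 of the 16 (6.25%), that of *Hmgcs1*, which makes the first committed intermediate, and in 1.19% of all tested genes. *Hmgcs1* rose (log2FC 0.27, standard error 0.0380, adjusted p = 4.61e-06), and its window on GRCm38.p6 is shown with the element in capitals. Elements that differ from these letters were not searched. The shares describe the list and are no result of NaHPO4. Further motifs were searched in these and other lists. In the ERK list, ETS sites (CCGGAA) and AP-1 sites (TGANTCA) stood in 0 of 14 genes with a promoter, against 25.8% and 5.34% of all tested genes. In the replication list CCAAT stood in 59.5% and ETS sites in 42.9%.
Hmgcs1, chr13:119690189-119690248, plus strand: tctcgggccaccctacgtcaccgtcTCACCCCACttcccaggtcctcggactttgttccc

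Glycolysis and hypoxia genes also rose, 10 of 22 (median log2FC 0.19), with no fall past edgeR's test (1 at an unadjusted p below 0.05, and 0 by DESeq2). *Ldha*, lactate dehydrogenase A, measured 408, 423 and 441 CPM in Control and 492, 522 and 558 CPM with NaHPO4 (log2FC 0.30, standard error 0.0368, adjusted p = 1.94e-07), *Eno1*, enolase 1, 108, 115 and 123 CPM and 136, 139.8 and 159 CPM (log2FC 0.32, standard error 0.0483, adjusted p = 9.64e-06) and *Pkm*, pyruvate kinase, 454, 462 and 485 CPM and 536, 554 and 599.6 CPM (log2FC 0.27, standard error 0.0363, adjusted p = 1.48e-06). *Pgk1* rose too (log2FC 0.42, standard error 0.0541, adjusted p = 7.6e-07), with 51.8% of its sequence shared with other genes. The groups were apart in these 4 genes. Of the 10 tested genes of the mitochondrial genome, edgeR called 0 in either direction (1 was lower at an unadjusted p below 0.05, and DESeq2 called 0). *mt-Co1*, a subunit of cytochrome oxidase, measured 9768 ± 333 CPM in Control and 9306 ± 151 CPM with NaHPO4 (log2FC -0.07, standard error 0.0299, adjusted p = 0.171).

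Chaperones of the endoplasmic reticulum rose in 5 of 13 genes of the unfolded protein response. *Hsp90b1* measured 640.5, 685 and 659 CPM in Control and 826, 790.5 and 794 CPM with NaHPO4 (log2FC 0.28, standard error 0.0319, adjusted p = 5.44e-08), *Calr*, calreticulin, 606, 622 and 622 CPM and 729.8, 740.5 and 775 CPM (log2FC 0.28, standard error 0.0312, adjusted p = 3.95e-08), and *Hspa5*, the chaperone BiP, 435, 466 and 453 CPM and 524, 532 and 533 CPM (log2FC 0.23, standard error 0.0319, adjusted p = 2.59e-06). For *Hspa5* 44.2% of the exon bases lie under a gene of the opposite strand. Of 18 genes of the integrated stress response 4 fell and 1 rose, with 0 rises without Control replicate 3, NaHPO4 replicate 2 or NaHPO4 replicate 3 and 3 without NaHPO4 replicate 1. *Nupr1*, a stress-induced chromatin protein, fell from 128, 126 and 123 CPM to 112, 104.5 and 99.3 CPM (log2FC -0.25, standard error 0.0401, adjusted p = 2.49e-05). Amino acid transporters fell in 3 of 19 genes. *Slc36a2*, a proton-coupled carrier of small amino acids, measured 269, 280.3 and 271 CPM in Control and 195, 193 and 189 CPM with NaHPO4 (log2FC -0.51, standard error 0.0337, adjusted p = 1.47e-13), and *Slc43a2*, a carrier of large neutral amino acids, 108, 100.2 and 113 CPM and 75.8, 75.7 and 71.2 CPM (log2FC -0.53, standard error 0.0449, adjusted p = 7.41e-11). Both were among the DEGs with the lowest adjusted p of those that fell, and the groups were apart in each.

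Receptors for hormones and Wnt genes changed in part. Of 10 vitamin D and steroid receptor genes 4 fell and 1 rose, and 2 fell without Control replicate 1. *Vdr*, the vitamin D receptor, measured 129, 121 and 144 CPM in Control and 107, 108 and 108 CPM with NaHPO4 (log2FC -0.29, standard error 0.0483, adjusted p = 6.73e-05), and *Thrb*, thyroid hormone receptor β, 10.1, 10.6 and 11.8 CPM and 18.6, 13.8 and 16.3 CPM (log2FC 0.57, standard error 0.0974, adjusted p = 8.72e-05). The first fell and the second rose, each with the groups apart. Of 17 Wnt genes 4 fell and 1 rose. With DESeq2 2 fell, and 0 rose without Control replicate 1 or NaHPO4 replicate 3 and 3 without Control replicate 3. *Wif1*, a secreted Wnt inhibitor of mature osteoblasts, went from 984, 979.6 and 1033 CPM to 858, 817 and 854 CPM (log2FC -0.25, standard error 0.0318, adjusted p = 7.6e-07), and thus fell as *Sost* did. Of 11 IGF genes *Igf2* fell (log2FC -0.53, standard error 0.123, adjusted p = 0.00407), with 56.3% of its sequence shared with other genes, and 3 of the list fell without NaHPO4 replicate 1 and 2 rose without Control replicate 3. With all libraries in the fit, 9.09% of the IGF list passed, near the 7.38% of all tested genes. Of 8 genes of potassium channels, sodium pumps and mechanosensitive channels, *Kcnn4*, a calcium-activated potassium channel, rose from 14.2, 16.8 and 17.4 CPM to 24.1, 21.3 and 24.1 CPM (log2FC 0.52, standard error 0.0802, adjusted p = 1.69e-05) and the pump subunit *Atp1b2* fell from 12.0, 12.8 and 11.8 CPM to 8.81, 8.21 and 8.55 CPM (log2FC -0.52, standard error 0.0974, adjusted p = 0.000352). In this list 2 fell without Control replicate 2 and 3 without NaHPO4 replicate 1.

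Of all tested genes 7.38% passed. In the lists that remain, 2 of 10 glucocorticoid targets (20%) passed and both fell. So did 3 of 15 genes of oxidative stress and metallothioneins pass (20%, 2 up), 2 of 24 interferon genes (8.33%, 1 up) and 2 of 17 clock genes (11.8%, 1 up). These counts were not stable: 0 glucocorticoid targets fell without Control replicate 1, and 0 genes of oxidative stress rose without Control replicate 3 or NaHPO4 replicate 2. Of the interferon genes 0 passed with DESeq2, which gave *Oasl2* no adjusted p, and without Control replicate 2, NaHPO4 replicate 1 or NaHPO4 replicate 3, and 0 clock genes fell without Control replicate 2, NaHPO4 replicate 1 or NaHPO4 replicate 2. The interferon-induced *Oasl2* measured 0.982, 2.31 and 0.866 CPM in Control and 0.437, 0.632 and 0.312 CPM with NaHPO4 (log2FC -1.56, standard error 0.424, adjusted p = 0.0159), with adjusted p-values of 0.256 without Control replicate 2, 0.0555 without NaHPO4 replicate 1 and 0.0876 without NaHPO4 replicate 3. The glucocorticoid target *Dusp1* fell (log2FC -0.32, standard error 0.0801, adjusted p = 0.00856), a call lost without Control replicate 1 (adjusted p = 0.0772).

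Several of the genes with the largest decreases were low, and many of their calls ended when 1 library was left out. *Tppp3*, a tubulin-binding protein of tendon and joint cells, measured 5.70, 5.0 and 5.83 CPM in Control and 3.09, 3.33 and 3.63 CPM with NaHPO4 (log2FC -0.72, standard error 0.150, adjusted p = 0.00129) and kept its call in each alternative. The proteoglycan gene *Bcan* (log2FC -1.25, standard error 0.391, adjusted p = 0.0419) lost its call in 6 alternatives (adjusted p up to 0.218, without Control replicate 3), and *Myo18b*, a muscle myosin (log2FC -0.89, standard error 0.233, adjusted p = 0.0115), reached 0.166 without Control replicate 1 and 0.0608 without NaHPO4 replicate 1. *Asb10* (log2FC -0.74, standard error 0.188, adjusted p = 0.00965) reached 0.0800 without NaHPO4 replicate 3, *Nhsl2* (log2FC -0.83, standard error 0.213, adjusted p = 0.0103) 0.0823 without Control replicate 1 and 0.0582 without NaHPO4 replicate 3, and *Calml3*, a calmodulin-like protein (log2FC -0.85, standard error 0.227, adjusted p = 0.0140), 0.0792 without Control replicate 1, 0.0659 without NaHPO4 replicate 3 and 0.0550 without NaHPO4 replicate 2. The channel-like gene *Tmc4* (log2FC -0.86, standard error 0.274, adjusted p = 0.0478) and the transcripts *Gm43759* (log2FC -1.20, standard error 0.380, adjusted p = 0.0459) and *6330415G19Rik* (log2FC -1.0, standard error 0.315, adjusted p = 0.0443) lost their calls in 6 alternatives each, with adjusted p-values up to 0.176, 0.210 and 0.202. These genes had at most 3.88 CPM in a library, other than *Asb10* with at most 4.29 and *Tppp3* with at most 5.83.

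The levels of markers of other cells differed by list. All 4 endothelial markers stayed under 10 counts in each of the 6 libraries, as did 4 of 7 adipocyte and 1 of 7 cartilage markers. For osteoclasts it was 3 of 4, and for haematopoietic cells and muscle 3 of 5 each. The adipocyte list summed to between 25.8 and 31.5 CPM in Control and between 20.6 and 27.8 CPM with NaHPO4. No endothelial marker passed the filter, and the 4 together summed to at most 0.187 CPM. Of the adipocyte list 2 genes were tested and none passed edgeR's quasi-likelihood test (1 at an unadjusted p below 0.05, 0 by DESeq2), but *Cebpa* passed as a fall with the likelihood ratio test, with no filter on low counts and without Control replicate 3 (lowest adjusted p 0.0383). The muscle gene *Des* passed as a fall with the likelihood ratio test alone. The cartilage genes *Col2a1* (log2FC -0.45, standard error 0.0954, adjusted p = 0.00141) and *Comp* (log2FC -0.49, standard error 0.103, adjusted p = 0.00141) fell, of 5 tested, and *Sox9* did not pass (log2FC -0.07, standard error 0.0633, adjusted p = 0.594). *Col2a1* libraries overlapped, at 264, 205 and 257 CPM in Control and 165, 142 and 225 CPM with NaHPO4, and DESeq2 gave an adjusted p of 0.235. The osteoclast protease *Ctsk*, which MC3T3-E1 cells held at 292 ± 3.42 CPM in Control, fell (log2FC -0.20, standard error 0.0333, adjusted p = 8.43e-05), while *Acp5*, *Calcr* and *Ocstamp* had at most 2 counts in a library. The cartilage list, with *Acan* at 1 count or less, summed to between 261 and 326.8 CPM in Control and between 199 and 284 CPM with NaHPO4, and its part in the fall of collagens was not tested.

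NaHPO4 and BGP were given at the same dose for the same time and form the single pair of phosphates compared, with p-values adjusted over all tested genes. BGP carries its phosphate on glycerol, while NaHPO4 is free phosphate. The direct test called 736 genes (5.38%), with 280 higher and 456 lower with NaHPO4. Of the 61 DEGs upregulated by NaHPO4, 15 were higher and 13 lower than with BGP, and of the 37 downregulated DEGs, 13 were lower. The log2FC of both phosphates against Control share the Control libraries and are set side by side only.

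The mineral genes differed in both directions. *Spp1* reached 6786 ± 576 CPM (SD, n = 3) with NaHPO4 and 4839 ± 349 CPM with BGP, a log2FC of 0.49 in favour of NaHPO4 (standard error 0.0465, adjusted p = 1.99e-09). *Dmp1* was lower with NaHPO4 than with BGP (349 ± 30.3 against 552 ± 41.8 CPM, log2FC -0.66, standard error 0.0551, adjusted p = 6.44e-11). So were *Enpp1* (log2FC -0.69, adjusted p = 3.36e-06), *Ank* (log2FC -0.52, adjusted p = 2.42e-09), *Fam20c* (log2FC -0.42, adjusted p = 9.3e-08) and *Slc20a1* (log2FC -0.41, adjusted p = 3.57e-08). *Fgf23*, at 8.39 ± 1.6 CPM with BGP, had a log2FC of -2.44 for NaHPO4 against BGP (standard error 0.189, adjusted p = 1.14e-11). Early genes were lower with NaHPO4 as well: *Egr1* was at 191 ± 12.0 CPM with BGP (log2FC -1.17, adjusted p = 5.68e-21) and *Egr3* at 103 ± 11.6 CPM (log2FC -0.98, adjusted p = 7.09e-14). *Sost* was lower with NaHPO4 (log2FC -1.48, adjusted p = 0.0155) than with BGP, where it held 1.21 ± 0.599 CPM.

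Genes higher with NaHPO4 included *Timp1* (291 ± 13.3 CPM with BGP, log2FC 0.62, adjusted p = 4.84e-12), *Cd300lb* (0.579 ± 0.241 CPM with BGP, log2FC 2.49, adjusted p = 1.08e-06) and *Osmr* (12.4 ± 1.20 CPM with BGP, log2FC 0.84, adjusted p = 2.06e-08). The median log2FC of the 52 replication genes was 0.23 for NaHPO4 and -0.03 for BGP, and 26 of them were higher with NaHPO4 than with BGP in the direct test. For the actin list the medians were -0.16 and 0.04, with 14 of 22 genes lower with NaHPO4, *Myl9* among them (83.4 ± 0.771 CPM with BGP, log2FC -0.64, adjusted p = 1.14e-11). For the cholesterol list they were 0.25 and 0.17, with 3 of 23 genes higher with NaHPO4.

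No difference was detected for some genes that rose with NaHPO4. Between NaHPO4 and BGP, *Emp1* differed by -0.00271 on the log2 scale (unadjusted interval of 1.96 standard errors each side, -0.08 to 0.07, adjusted p = 0.986). For *Prkg2* the difference was 0.19 (0.01 to 0.37, adjusted p = 0.295), for *Etv4* -0.21 (-0.41 to -0.01, adjusted p = 0.295) and for *Idi1* 0.08 (-0.14 to 0.31, adjusted p = 0.788).

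**Figure D5:**
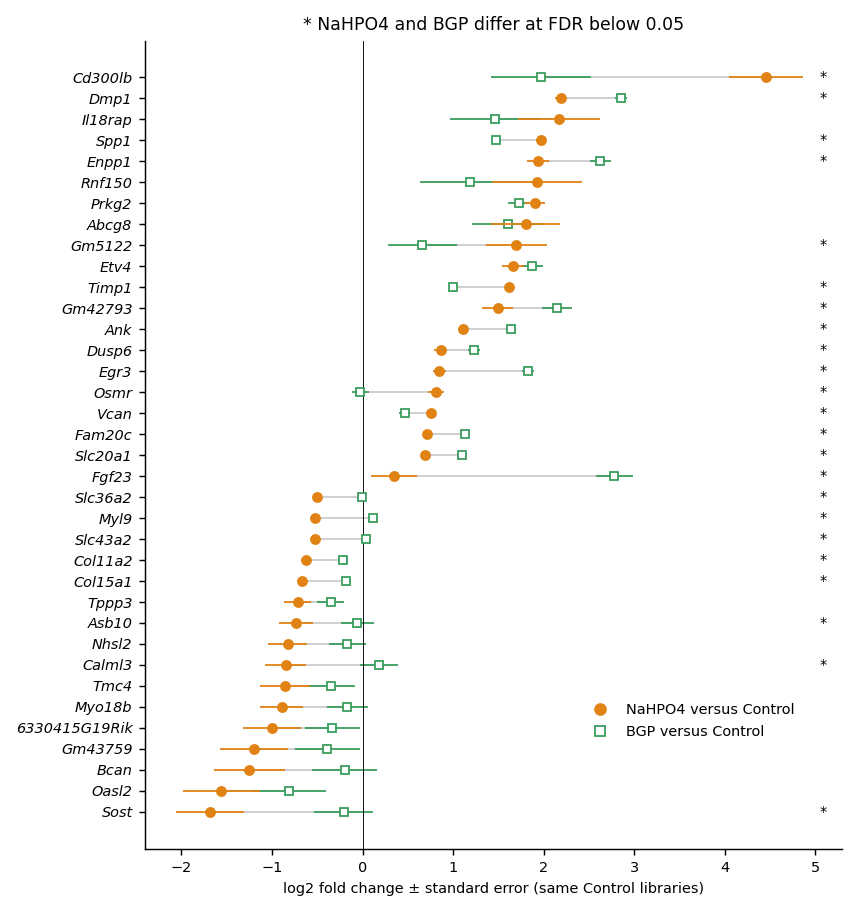
Log2FC with standard error against the same Control libraries for NaHPO4 (filled circles) and BGP (open squares), for the genes with the largest changes after NaHPO4 and 12 others, with an asterisk where the 2 phosphates differed directly at an FDR below 0.05. *Spp1*, *Timp1* and *Cd300lb* lie farther right with NaHPO4, and *Dmp1*, *Enpp1*, *Ank* and *Egr3* farther right with BGP.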

How the data were processed

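RNA sequencing of MC3T3-E1 cells was re-analysed from the deposited tables. The authors deposited a table of counts, whole-number read counts for each of 55416 genes without normalization, made from stranded poly(A) libraries on GRCm39. FastQC and edgeR are named in the submitters' processing notes, while the aligner and the use of strand in counting are not given in the sources used here. The authors also deposited a TMM-normalised signal, equal to the counts times 1 factor per library, which served for gene symbols and 1 alternative. In the tables, 0 columns belonged to samples outside the study.

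Low genes were removed by edgeR 4.0.16 (filterByExpr, count minimum 10), and the rest were scaled by TMM and fitted over all 9 libraries (glmQLFit, glmQLFTest, Benjamini-Hochberg). Standard errors were derived from the F statistic. Alternatives were the 2 groups alone, a likelihood ratio test, DESeq2 1.42.0, limma 3.58.1 on log2(value + 1), other scalings, filters and thresholds, a replicate block and each library left out. Scripts ran in R 4.3.3 and Python 3.11.15 (pandas 2.3.3, matplotlib 3.10.9). The procedure was tested on simulated data. Counting error and the spread between libraries are covered by the errors given.

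Members, gene lists and motifs were chosen with earlier results of these data known. Named genes are the 12 largest DEGs each way with at least 1 CPM in a group and no overlap, each list's DEGs and up to 4 members with the lowest FDR (or, where none passed, the 3 highest), and *Fgf23*, *Dmp1*, *Spp1*, *Alpl*, *Sost*, *Slc20a1*, *Slc20a2*, *Enpp1* and *Ank*. Other genes named were chosen after their values were seen, to complete a list or pathway described. Positions and overlaps came from a GENCODE annotation of GRCm39 and promoters from RefSeq on GRCm38.p6, with the 250 bases before the start searched. No protein sequence was used here.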

Additional observations from a re-analysis of the deposited data

How the results depend on the processing

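No gene for which the alternatives were run changed direction past the test. The count of downregulated DEGs was 71 with edgeR's likelihood ratio test and 24 with DESeq2, against 37. Scaling by total counts alone gave 777 rising genes in place of 469, and moved the median log2FC of all genes to 0.02. Without a minimum log2FC there were 469 genes up and 540 down, and with a minimum of 1 there were 28 up and 9 down. At an FDR of 0.01 there were 17 downregulated DEGs, and without a minimum fold change 254 genes up and 314 down. Leaving out each library in turn gave between 284 (without Control replicate 1) and 421 rising genes. The main DEGs that were kept numbered 68 to 76 of 98 with a library left out, 72 with DESeq2, 89 with limma and 98 with the likelihood ratio test. Replicate numbers are shared between the groups, but same-numbered libraries hardly deviated together (correlations 0.030, 0.043 and 0.041), although each of the 3 numbers correlated best with itself. With the replicate number as a block there were 63 DEGs up and 38 down (461 and 535 without a minimum fold change), and 96 of the 98 DEGs were kept. Depth limits the lowest genes, since 69 of the DEGs had under 10 CPM in Control.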
